A study of Caenorhabditis elegans with 2 samples.

Results

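Chromosome V, the longest of the 6 chromosomes of Caenorhabditis elegans, carried 408 of the 2987 UNC-86 binding peaks in the deposited optimal list (13.7%, 95% interval 12.4 to 14.9), although it makes up 20.9% of the sequence. The 408 peaks were chosen by position alone, as every peak of that list on the chromosome. The list came from chromatin immunoprecipitation and sequencing (ChIP-seq) with an antibody to GFP in whole hermaphrodite first-stage (L1) larvae of strain OP476, which is mutant for unc-119 (allele tm4063, on chromosome III) and carries wgIs476, a transgene that encodes UNC-86 joined to GFP. The animals were taken 6 h after bleached embryos had been starved into L1 synchrony. There was 1 group with 2 biological replicates and no second genotype, stage or treatment, so chromosomes and parts of chromosome V were compared within the same libraries and no test between groups of samples existed. In the labels the tag is eGFP at one place and GFP-FLAG at another, and unc-86 stands as the antibody target; promoter and copy number of the transgene were not stated. A whole larva mixes the neurons in which unc-86 is known to act with all other tissues, and a peak list does not say in which cells the protein was bound. Signal is the authors' own value for each peak, on a scale that was not stated. All 2987 optimal peaks carried the same value in the pooled list of both replicates, so these lists share a scale, while values of the 2 replicates, printed in parentheses, were compared only by rank or by a ratio taken about its median over the optimal list. Read depth is unknown.

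UNC-86 is a POU homeodomain transcription factor that sets the identity of many neuron classes, among them the touch receptor neurons, where it acts with the LIM homeodomain protein MEC-3. The autosomes of this worm have gene-dense, rarely recombining centres and arms with more recombination and more repeats. The arms of chromosome V are known for large clusters of quickly expanding gene families. The best known are the seven-transmembrane chemoreceptors (str, srh, srw, srx and related names), through which sensory neurons detect chemicals, together with nuclear hormone receptors, F-box genes and C-type lectins.

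Windows of 151 bp centred on the summit show what sequence lay under these peaks (ce11 build, plus strand, 5′ to 3′, read from the WBcel235 reference). The first 4 are the strongest peaks of the chromosome, the next 3 are the strongest promoter peaks that hold AATGCAT, an element known to be bound by UNC-86 with MEC-3, and the last 2 lie in the promoter windows of chemoreceptor genes. Capitals mark GAGAGA or its complement TCTCTC, and AATGCAT or its complement ATGCATT.
linc-128 exon upstream of cmd-1, chrV:1151423-1151573: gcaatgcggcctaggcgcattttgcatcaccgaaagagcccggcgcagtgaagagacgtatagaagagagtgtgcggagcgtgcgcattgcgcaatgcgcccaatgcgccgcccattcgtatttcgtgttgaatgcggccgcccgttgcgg
tos-1, chrV:9344240-9344390: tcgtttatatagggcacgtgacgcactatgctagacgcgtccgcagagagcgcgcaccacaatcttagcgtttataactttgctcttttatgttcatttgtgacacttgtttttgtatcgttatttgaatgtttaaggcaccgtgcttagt
C47E8.4 and hsp-90, chrV:14685698-14685848: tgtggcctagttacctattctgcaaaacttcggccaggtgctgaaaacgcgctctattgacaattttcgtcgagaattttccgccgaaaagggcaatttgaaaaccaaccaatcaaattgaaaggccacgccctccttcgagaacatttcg
hif-1 upstream, chrV:20778365-20778515: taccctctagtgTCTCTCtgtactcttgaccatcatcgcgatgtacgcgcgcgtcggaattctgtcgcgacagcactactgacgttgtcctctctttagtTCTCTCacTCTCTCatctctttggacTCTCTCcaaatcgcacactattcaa
F48G7.4, chrV:619167-619317: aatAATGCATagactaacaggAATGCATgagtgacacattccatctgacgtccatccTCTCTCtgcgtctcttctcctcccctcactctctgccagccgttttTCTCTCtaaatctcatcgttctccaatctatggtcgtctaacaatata
ppm-1.A, chrV:10536995-10537145: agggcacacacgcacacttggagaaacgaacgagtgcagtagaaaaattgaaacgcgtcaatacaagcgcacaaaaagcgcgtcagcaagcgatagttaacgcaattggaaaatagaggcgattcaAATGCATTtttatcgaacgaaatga
seip-1, chrV:6053410-6053560: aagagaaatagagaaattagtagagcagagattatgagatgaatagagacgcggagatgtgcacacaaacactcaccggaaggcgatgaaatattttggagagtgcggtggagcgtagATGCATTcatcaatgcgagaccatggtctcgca
F25E5.1 and srh-89, chrV:7465639-7465789: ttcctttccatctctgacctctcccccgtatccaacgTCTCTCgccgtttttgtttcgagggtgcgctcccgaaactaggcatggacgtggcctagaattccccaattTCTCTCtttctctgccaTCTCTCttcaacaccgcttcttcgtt
srab-12, chrV:17784914-17785064: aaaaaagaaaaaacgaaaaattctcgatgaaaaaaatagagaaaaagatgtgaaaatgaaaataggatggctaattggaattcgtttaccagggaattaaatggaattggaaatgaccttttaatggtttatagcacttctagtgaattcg

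The strongest windows differed in base composition as well as in these motifs. The linc-128 window was 60.3% G or C and the tos-1 window 42.4%, and neither held either motif. The window upstream of hif-1 held 4 copies of TCTCTC. The F48G7.4 window held 2 copies each of AATGCAT and TCTCTC. Of the chemoreceptor windows shown, the one shared by F25E5.1 and srh-89 was 51.7% G or C with 3 copies of TCTCTC, while the one upstream of srab-12 was 29.1% G or C with none. They are the highest and the lowest in G or C of the chemoreceptor windows that were read. The window of the stronger peak at srr-10 (145), not shown, was 49.7% G or C with neither motif. The median over all 408 windows was 43.7%, against 45.03% for the other chromosomes together. A match is a description of the letters and says nothing of the factor that was bound.

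Peaks were sparser on chromosome V than on any other chromosome. It held 19.5 peaks per Mb, against 26.7 on IV, 28.4 on II, 32.6 on X, 36.6 on I and 39.8 on III, and 32.5 on those 5 together. When the strongest 2987 peaks of each replicate were taken alone, both replicates placed 413 on chromosome V, 19.7 per Mb. The 2 replicates of any other chromosome differed by an SD of at most 0.606 peaks per Mb, far less than the distance from V to IV. The chromosome is also the richest in protein-coding genes, with 4994 (238.7 per Mb, against 188.8 elsewhere), so that per 100 genes it had 8.17 peaks where the others had 12.6 to 21.1. In the pooled list, a longer list of 20768 peaks that includes weak and background peaks, the gap was narrower: V held 3631 (17.5%), or 173.5 per Mb against 190.6 to 240.4. The optimal peaks were 11.2% of the pooled ones on V and 15.05% elsewhere.

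**Figure D1:**
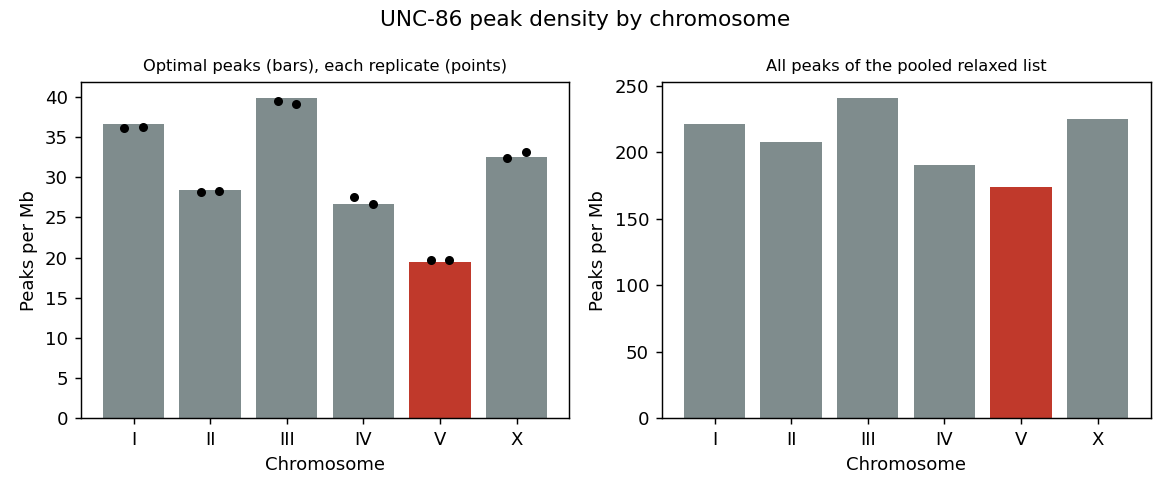
Peaks per Mb on each chromosome in the optimal list (left, bars) and in each replicate's own strongest 2987 peaks (left, points), and in the pooled list (right). Chromosome V, in red, is the lowest in both panels, at 19.5 and 173.5 peaks per Mb.

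Fewer genes on chromosome V had a peak at their promoter. The promoter window of a gene began 1500 bp before each annotated 5′ end and ended 500 bp after it, and a gene counted if a summit lay inside. Of the 4994 protein-coding genes on V, 422 did (8.45%, 95% interval 7.69 to 9.26), where 13.1% of all protein-coding genes did. The replicates alone gave 8.31% ± 0.0566 (SD, n = 2). On the other chromosomes the share was 11.5% on X, 11.7% on II, 12.5% on IV, 19.2% on I and 19.3% on III. The interval for V met none of theirs.

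Large gene families, common on V, were nearly without promoter peaks. The 10 families listed (chemoreceptors, F-box genes, nuclear hormone receptors, C-type lectins, cytochromes P450, UDP-glucuronosyltransferases, glutathione transferases, short-chain dehydrogenases, cuticle collagens, and MATH and BATH genes) made up 1371 genes, 27.5% of those on V against 8.30% elsewhere. A summit lay in the promoter window of 14 of the 1371 (1.02%, interval 0.559 to 1.71) and of 46 of 1243 elsewhere (3.70%, 2.72 to 4.91). Without these families the share on V was 408 of 3623 genes, 11.3% (interval 10.2 to 12.3), and the share elsewhere 15.6% (15.01 to 16.2). Chromosome V was still the lowest by value, but X, at 11.6% (10.4 to 12.9), was then within the interval, with 10.99% ± 0 and 11.7% ± 0.463 over the replicates (SD, n = 2). The interval of II (13.2%, 12.02 to 14.5) then also met that of V. Among the remaining genes that carry a gene name, 253 of 1489 had a peak on V (17.0%), against 21.7% elsewhere and 16.6% on X. Among those known by a sequence name alone, 155 of 2134 did (7.26%), against 9.64% elsewhere and 7.28% on X.

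Within the chromosome, cut into 3 parts of equal length, the peaks were gathered in the centre. The left arm (ce11 positions 1 to 6974726) held 116 peaks, 16.6 per Mb, with 121.5 ± 4.95 over the replicates alone (SD, n = 2). The centre (6974727 to 13949453) held 195 peaks, 28.0 per Mb, with 194.0 ± 2.83. The right arm (13949454 to 20924180) held 97 peaks, 13.9 per Mb, with 97.5 ± 2.12. The centre was above both arms in each replicate by far more than the spread, and its density was still below the whole-chromosome density of II, X, I and III. Its share of the peaks, 47.8% (interval 42.9 to 52.8; replicates 47.0% ± 0.685), was the highest among the 6 chromosomes, whose other centres held 31.7% to 42.8%, though the interval met those of I, II, III and IV.

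**Figure D2:**
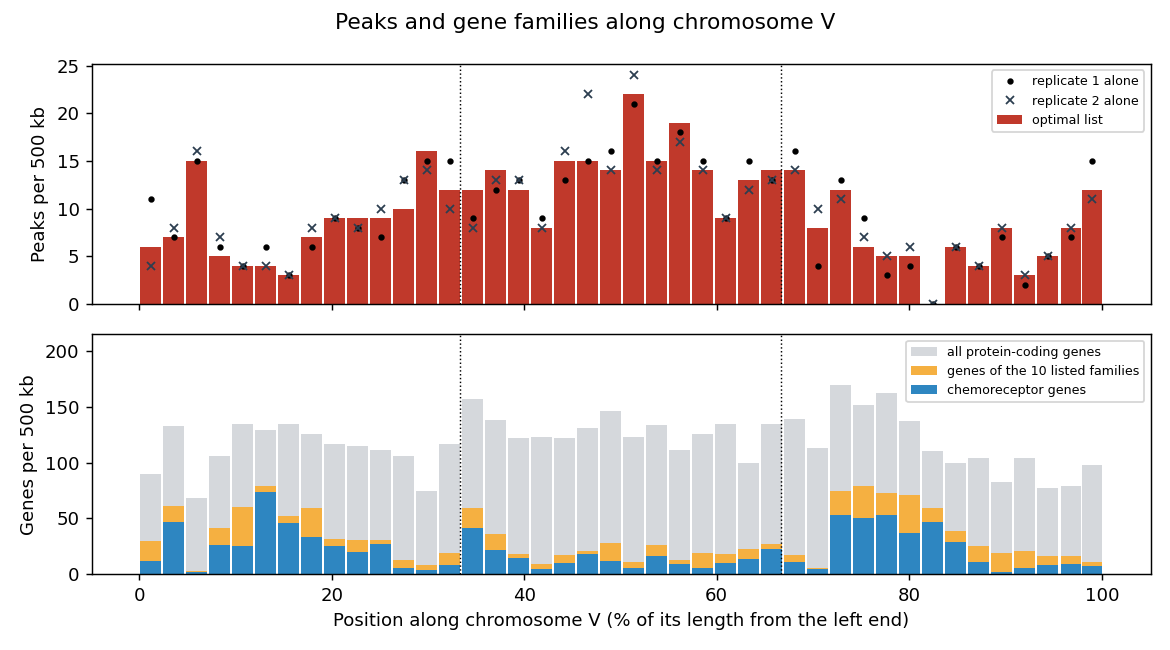
Peaks per 500 kb along chromosome V (top, bars for the optimal list, symbols for each replicate alone) and protein-coding genes per 500 kb in the same bins (bottom, all genes, genes of the 10 listed families and chemoreceptors, drawn over each other). Dotted lines part the arms from the centre and the last bin is shorter than the others. The 1 bin without a peak holds 47 chemoreceptor genes.

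Genes followed the same order. In the centre 210 of 1797 genes had a promoter peak (11.7%, interval 10.2 to 13.3), in the left arm 111 of 1554 (7.14%, 5.91 to 8.54) and in the right arm 101 of 1643 (6.15%, 5.03 to 7.42). The arms held 353 and 329 of the chemoreceptor genes and the centre 208. With the 10 families left out, the centre stood at 13.9% (12.2 to 15.8), the left arm at 10.3% (8.56 to 12.4) and the right arm at 8.61% (7.03 to 10.4). The right arm stayed below the centre beyond the intervals, while those of the left arm and the centre met. Over the replicates the 3 values were 13.5% ± 0, 10.2% ± 0.474 and 8.48% ± 0.444 (SD, n = 2). The pooled list showed a flatter course, with 1293 peaks in the left arm, 1351 in the centre and 987 in the right arm.

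**Figure D3:**
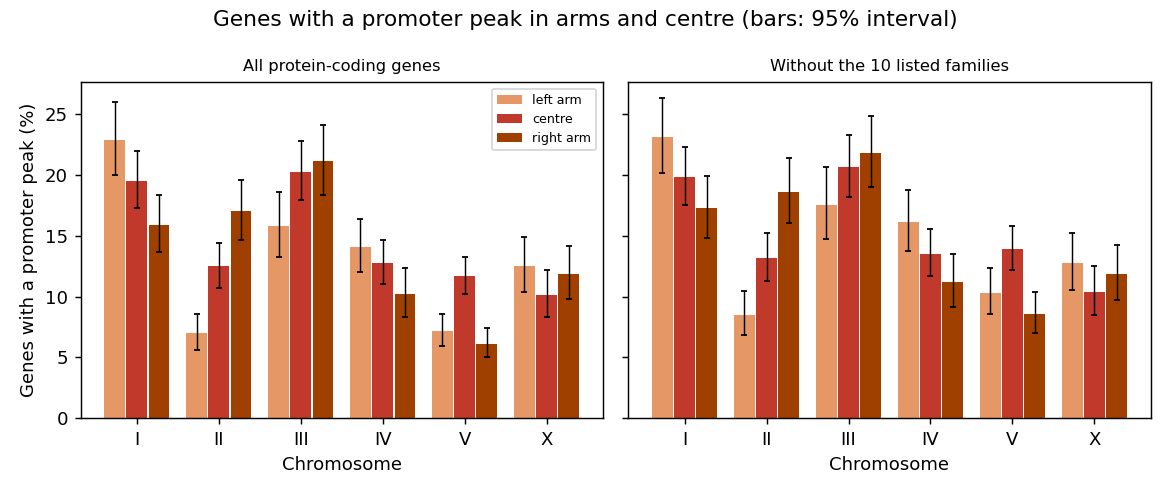
Percentage of protein-coding genes with a promoter peak in the left arm, centre and right arm of each chromosome, for all genes (left) and without the 10 listed families (right). Error bars are exact 95% intervals, which cover counting only. On V the centre stands at 11.7% and 13.9%, above both arms in either panel.

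Median counts per 500 kb were lower in the bins of V richest in chemoreceptors and alike in its other classes of bins. The 42 bins of V had a median of 9 peaks and a highest count of 22, while the 159 bins elsewhere had a median of 16. In the 10 bins of V with 30 or more chemoreceptor genes the median was 5.5 peaks (0 to 12). In the 18 bins with 10 to 29 it was 10.5 (4 to 15), and in the 14 bins with 1 to 9 it was 11 (3 to 22). The pooled list gave medians of 60.5, 101 and 98.5 peaks for the same bins. Those bins were not short of genes, with medians of 136, 122 and 105 protein-coding genes. Bins elsewhere with 10 to 29 chemoreceptors, of which there were 11, also had a median of 11 peaks, and those with 1 to 9 had 15. Bins of V departed from this order in both directions. In the right arm, the neighbouring bins from 18000001, 18500001, 19000001, 19500001 and 20000001 had 11, 2, 6, 8 and 9 chemoreceptors. They held 4, 8, 3, 5 and 8 peaks, while the last bin of that arm had 7 chemoreceptors and 12 peaks. The bins from 7000001 in the centre and 15000001 in the right arm had 41 and 53 chemoreceptors and 12 peaks each. Arms and centre were not separated in these classes, so the class medians do not part position from chemoreceptor content, and the share of each was not tested. Reads from near-identical family members may be hard to place, and peak lists do not show which bases could be mapped, so the part of mappability in these counts was not tested.

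Chromosome V had long stretches without a peak, and the 8 longest lay in its arms. The median distance between neighbouring summits was 25.6 kb on V and 16.6 kb elsewhere. Distances over 200 kb numbered 15 on V and covered 5.16 Mb, 24.7% of the chromosome, where the other chromosomes had 0 to 5 and at most 9.69%. Of the 10 longest in the genome 5 lay on V. The longest elsewhere, on IV, was 568 kb.

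**Figure D4:**
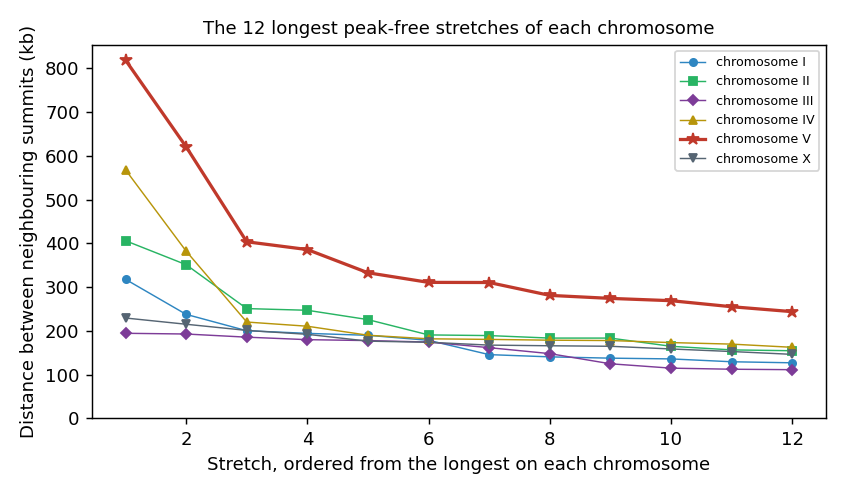
The 12 longest distances between neighbouring summits of the optimal list on each chromosome, in kb, ordered from the longest. The line for V starts at 819 kb and 621 kb and lies above the others at every place in the order.

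The longest stretch, 819 kb in the right arm from 16965863 to 17784989, lay between the summits at fbxa-90 and srab-12. It held 182 protein-coding genes and 118 pseudogenes. Of the genes 67 were chemoreceptors, 27 of them srh and 11 srz, and 16 were F-box genes, which encode parts of ubiquitin ligases. Neither replicate had any of its strongest 2987 peaks there. The pooled list had 58 peaks inside it, the highest with a signal of 42.6, where the lowest signal of the whole optimal list was 66.4. The second, 621 kb in the left arm from 2694610 to 3315544, held 177 genes, of which 94 were chemoreceptors, with 23 srw and 16 srh. Each replicate had 1 strong peak of its own in it, and the highest pooled signal was 44.2.

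The next stretches held other mixtures of families. A stretch of 404 kb from 18086966 in the right arm had 9 chemoreceptors, 7 C-type lectins and 5 F-box genes among 92 genes. One of 386 kb from 2214930 in the left arm had 23 chemoreceptors and 17 nuclear hormone receptors among 99. One of 333 kb from 19190180 had 12 F-box genes, all of the fbxb class, among 80. The stretches of 311 kb (from 1494338, ending at the hsp-16.2 peak), 310.5 kb (from 16040694, starting at the his-3 peak) and 281 kb (from 19724888, ending at the unc-51 peak) had 24, 30 and 7 chemoreceptors. Together these 8 stretches spanned 3.46 Mb and 860 genes, of which 378 (44.0%) belonged to the listed families, against 27.5% of all genes on V. All 8 lay in the arms, where the share was 32.8% (left) and 32.1% (right). In the stretches of 404, 333 and 281 kb it was only 23.9%, 23.75% and 30.6%, and in the others it was 43.9% to 57.1%. The 8 stretches held 260 chemoreceptor genes, 29.2% of those on V, in 16.6% of its length. In the pooled list they had 95.3 peaks per Mb and the rest of V 189.1, a difference partly set by the choice of the stretches, since all 408 optimal peaks are in the pooled list and lie in the rest.

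Chemoreceptor genes with a peak were few, and in most of these the summit lay nearer another gene. Of 890 chemoreceptor genes on V, 67.9% of all those in the genome, 7 had a promoter peak, which is 0.787% (interval 0.317 to 1.61), none in the left arm, 4 in the centre and 3 in the right arm. Elsewhere 6 of 420 did (1.43%, 0.526 to 3.08), and the intervals met. The peak at srh-16 had a signal of 315 (143 in replicate 1 and 165 in replicate 2), 58 bp from its 5′ end. The peaks at srr-10 (145), srh-89 (121), srbc-79 (89.2) and srh-24 (77.2) lay closer to clic-1, the clathrin light chain gene, F25E5.1, B0250.5 and R10D12.13. The chemoreceptor held the nearest 5′ end in 3 of the 7, namely srh-16, srab-12 (97.0) and srab-4 (77.7), with summits 58, 1347 and 834 bp away. No peak lay in a promoter window of any of the 157 str, 95 srw, 79 srx, 47 srt, 26 srz or 21 sri genes of V.

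Members with a peak were also few in the other families, some of which are too small on V to tell from all its genes. Of 167 nuclear hormone receptor genes 3 had one (1.796%, interval 0.372 to 5.16), all in the left arm, against 14 of 106 elsewhere (13.2%, 7.41 to 21.2), and these intervals did not meet. They were nhr-47, with a signal of 456 (210.0 and 240.7 in the replicates) 9 bp from its 5′ end, nhr-142 (275; 130.5 and 130.9), nearer to F44E7.9, and nhr-184 (74.4; 34.3 and 42.0). The only F-box gene of 88 was fbxa-90, and its peak (393; 167 and 219) lay 188 bp from efl-1, an E2F transcription factor gene, and 951 bp from fbxa-90. No C-type lectin of 86, cytochrome P450 of 41 or cuticle collagen of 33 had a promoter peak, and of 42 UDP-glucuronosyltransferase genes ugt-18 alone did (99.4). The upper bound for C-type lectins was 4.20%. Those for cytochromes P450 (8.60%), collagens (10.6%) and UDP-glucuronosyltransferases (12.6%) lay above the 8.45% of all genes on V. Elsewhere 3 of 154, 0 of 34, 9 of 142 and 0 of 25 of these families had a peak, in the same order. MATH and BATH genes, of which V holds only 3, had bath-36 (159) and math-33 (106), the second nearer to erfa-3, a translation release factor gene. Over the 10 families the member held the nearest 5′ end in 7 of its 14 cases.

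The strongest peak of the chromosome, and the fourth of the genome, had a signal of 1370.5 (605 in replicate 1, 775 in replicate 2). It lay at 1151309 to 1151723 in the left arm, in an exon of the long non-coding RNA gene linc-128 and 4773 bp before the 5′ end of cmd-1 (WBGene00000552), which encodes calmodulin. Next came tos-1 (WBGene00019466) in the centre, with a peak from 9344150 to 9344570, a signal of 1014 (425 and 584) and a summit 112 bp upstream. After it came the peak between C47E8.4 (WBGene00008143) and hsp-90 (WBGene00000915), which encodes the cytosolic HSP90 chaperone, from 14685591 to 14685905 with 970.2 (456 and 513) in the right arm. These 3 lay in the 3 different parts of the chromosome and in the same order in replicate 2, while replicate 1 had the hsp-90 peak above the tos-1 peak.

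Both a transcription factor gene of the response to low oxygen and the gene of its regulator were among those nearest the 15 strongest peaks. A peak of 892 (378 and 520.2) lay 1967 bp upstream of hif-1 (WBGene00001851), which encodes the hypoxia-inducible factor, at 20778252 to 20778590 and outside any promoter window. One of 501 (224 and 276) lay 1721 bp upstream of egl-9 (WBGene00001178), the prolyl hydroxylase that marks HIF-1 for degradation, within windows of non-coding RNA genes. At W06H8.6 in the left arm 2 peaks stood near each other, with signals of 815 (352 and 461) and 790.4 (348 and 445); the first was in the promoter window of W06H8.6 and the second inside that gene, in the windows of W06H8.16 and W06H8.5. The peak between sec-61.G, which encodes the gamma subunit of the protein translocon, and F32D8.7 had 760.1 (331 and 433). The core histone gene his-37 had 655, ztf-7 562, Y59A8B.24 516, drap-1 511 and egl-3, which encodes the proprotein convertase that processes neuropeptides, 475. Y39B6A.43 and Y43F8B.2, both in the right arm, each had 512. In all 15 the log2 ratio of the replicates lay between -0.17 and 0.16 about the median ratio over the optimal list.

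The median signal on V was 122 (quartiles 87.2 and 216), and on the other chromosomes it ran from 118.7 to 133.3. Over the strongest 2987 peaks of replicate 1 alone V had the lowest median, 52.7 against 53.7 to 57.7, and over those of replicate 2 it had 67.7 against 66.6 to 75.3. The arms and the centre had medians of 119.7, 122 and 124 from left to right. Of the 300 strongest peaks of the genome 37 were on V, 9.07% of its peaks against 10.2% elsewhere, and of the 100 strongest 8 were. Promoter peaks on V had a median of 129.6, the 42 intergenic peaks 107.8 and the 24 intronic peaks 90.8.

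**Figure D5:**
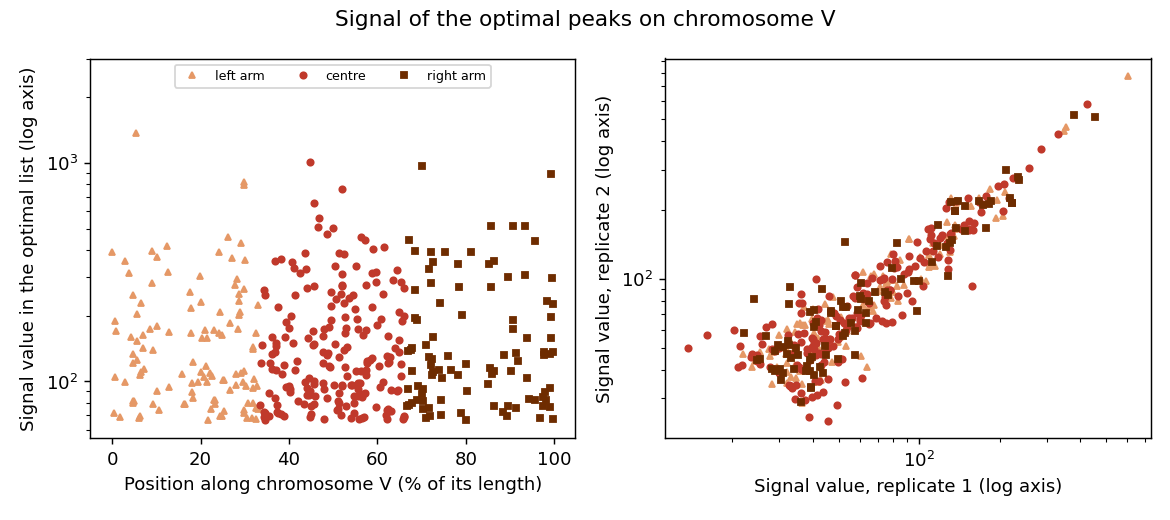
Signal of each of the 408 peaks along chromosome V (left) and in replicate 1 against replicate 2 (right), on log axes, with arms and centre marked. Strong peaks occur in all 3 parts, and the replicates rank the peaks alike with Spearman's rho of 0.866.

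The replicates agreed on V about as often as elsewhere. Of the 408 peaks 336 (82.4%, interval 78.3 to 85.9) were overlapped by one of the strongest 2987 peaks of both replicates, where 84.2% of all optimal peaks were. Replicate 1 covered 365, replicate 2 covered 377, and neither covered 2. The optimal list was made from these replicates, so this describes the list and is not independent of it. Spearman's rho of the signals was 0.866 over the 408 peaks and 0.858 over those elsewhere, described without a p since peaks of 1 library pair are not replicates. The ratio of the replicates was over 2-fold from its median at 11 peaks (2.70%, against 3.41% elsewhere). Of these the peaks at W05E10.5 (45.7 and 23.9), ZK742.7 (49.4 and 28.1) and ZC443.3 (157 and 93.3) were the most in favour of replicate 1. Those at soap-1 (13.6 and 49.7), between uvs-1 and xpo-1 (16.1 and 56.97) and near W08G11.1 (24.2 and 81.8) were the most in favour of replicate 2.

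Most peaks lay at promoters. On V 337 summits (82.6%, interval 78.6 to 86.2; replicates 81.8% ± 0.342, SD, n = 2) were in a promoter window of some gene, against 79.5% elsewhere. Such windows covered 58.4% of V, 65.6% of IV and 45.9% to 53.8% of I, II, III and X. A protein-coding gene's window held 285 summits, at a median of 185 bp upstream (quartiles 77 and 360), and 52 lay only in windows of non-coding genes. Windows of 2 or more protein-coding genes held 131 of them, and 96 lay between divergent 5′ ends, so that the 422 genes with a peak are more than the 285 peaks that mark them. Outside promoters 5 summits were in exons, 24 in introns and 42 between genes; after those near cmd-1 and hif-1 the strongest was 2618 bp upstream of F58D12.3 (443; 219 and 227).

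Peaks of V stood less often in groups. Another summit lay within 2 kb for 13.2% of them, against 18.9% to 29.1% on the other chromosomes. The lower peak density of V bears on this share, and grouping apart from density was not tested. The densest 200 kb, from 10708585 in the centre, held 13 peaks (13 and 14 in the replicates alone), led by the one at sec-61.G. Among its 49 genes 10 had a promoter peak, with T28B11.1 at 388. The next, from 9219252, held 11 (8 and 11), led by tos-1 and with glo-4, a gene of gut granule formation, at 267. A window from 11851000 also held 11 (11 and 13), with snr-4, which encodes a spliceosomal Sm protein, at 446, gcy-33, a guanylyl cyclase of oxygen-sensing neurons, at 278, and pkc-1, a protein kinase C gene, at 172.

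Genes of translation and protein folding on V had peaks in larger shares than the 10 listed families together (1.02%). A promoter peak was found at 8.45% of all genes on V and at 17.0% of those with a gene name outside the families. Of 8 cytosolic ribosomal protein genes 5 had one, from 4 peaks, with rpl-38 at 229 (128 and 103.3), rpl-28 at 194 (81.0 and 120.1) and rpl-39 and rps-30 sharing one of 151 (63.8 and 86.2). Elsewhere 63 of 74 did, and V holds only 9.76% of these genes. Of 6 translation factor genes 5 had a peak, among them ife-3, an eIF4E gene, at 393 (193 and 184) and eef-1G at 382 (152 and 226), against 20 of 38 elsewhere. Of 10 mitochondrial ribosomal protein genes 4 had one, against 19 of 60. Of 9 heat shock genes 4 did, from 3 peaks: hsp-90, hsp-6, the mitochondrial HSP70 (172; 75.4 and 94.6), and the divergent pair hsp-16.2 and hsp-16.41 (173; 67.9 and 105). The counts are small, and the intervals of V and elsewhere met in each of these lists. Several of these summits lay nearer another gene. With the nearest 5′ end alone, 2 cytosolic ribosomal protein, 3 translation factor, 2 mitochondrial ribosomal protein genes and 1 heat shock gene kept a peak.

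Other lists of widely used genes gave the following counts, to be read beside the 8.45% of all genes on V. Among proteasome subunits 2 of 5 did, rpt-2 (234) and rpt-1 (88.2), against 16 of 28 elsewhere. Among respiratory chain subunits 1 of 4 did, atp-5 (144), against 25 of 45. Of the V-ATPase subunits, which acidify organelles, 1 of 2 did, vha-13 (195), against 8 of 19. Of 27 core histone genes on V 5 had a peak, from 3 peaks, with his-35 and his-41 sharing one of 148 (41.2 and 100.04) and his-4 one of 113, against 11 of 45 elsewhere. With the nearest 5′ end alone, 3 core histone genes and 0 respiratory chain genes kept a peak, while the proteasome (2) and V-ATPase (1) counts stayed. Core histone genes and hsp-16 genes are near-identical copies, for which the placing of reads is uncertain.

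Neuronal genes on V, and unc genes, which are named by phenotype and not by cell type, had peaks in some lists and few or none in others. The counts are small and are to be read beside the 8.45% of all genes on V with a peak. The list of pan-neuronal genes had 4 members on V and 3 of them had a peak, namely egl-3 (475; 208 and 261), rgef-1, a Ras guanine nucleotide exchange factor gene (274; 119.6 and 152), and snb-1, the synaptobrevin gene (79.8; 40.4 and 49.1), against 13 of 21 elsewhere. Of 17 unc genes, named for uncoordinated movement, 7 had one, the strongest being unc-51, an autophagy kinase gene needed for axon growth (438; 223 and 216), unc-76, a kinesin adaptor gene (391; 173 and 211), the cofilin gene unc-60 (164; 70.4 and 88.2) and unc-80, which encodes a sodium leak channel subunit (136; 63.3 and 71.3). Elsewhere 32 of 77 did. In contrast no neuropeptide gene of 21 had one, flp-21 and flp-34 among them, against 6 of 84 elsewhere. None of 24 ligand-gated ion channel genes did, such as acr-15 and acr-16, and 1 of 22 potassium channel genes did, egl-2 (69.8; 30.5 and 39.7). Neither of the touch receptor neuron genes on V, mec-1 and mec-9, had a promoter peak, while 5 of 14 elsewhere did. All of these intervals met those elsewhere, and the upper bounds for neuropeptide (16.1%), ligand-gated channel (14.2%) and potassium channel genes (22.8%) lay above the share over all genes on V.

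Counts of non-coding genes are to be read beside the 8.45% of all protein-coding genes on V with a promoter peak. In the broad ncRNA class 143 of 1524 genes on V had one (9.38%), against 12.1% elsewhere. Among piRNA genes 5 of 202 had one (2.48%), against 2.16%. Of 55 snoRNA genes on V 20 had a promoter peak, from 18 peaks (36.4%, interval 23.8 to 50.4), against 32.99% elsewhere. Of 78 tRNA genes 11 did, from 10 peaks (14.1%, 7.26 to 23.8), against 23.2%. The snRNA genes, which encode RNAs of the spliceosome, had 1 of 40 (2.50%, 0.0633 to 13.2), T11F9.15 with 446, against 17 of 89 (19.1%, 11.5 to 28.8), and the intervals met. Of 28 miRNA genes mir-87 alone did (122; 58.7 and 70.9), and lsy-6, a miRNA of taste neuron asymmetry, did not. None of the 15 rRNA genes of V, all in the right arm, had a peak, and 6 of 867 annotated pseudogenes did (0.692%), against 2.30% of pseudogenes elsewhere. Short non-coding genes often lie inside or beside a protein-coding gene, and their windows then hold the same summit.

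The sequence GAGAGA, on either strand, was in 135 of the 408 summit windows (33.1%, interval 28.5 to 37.9; replicates 31.8% ± 1.20, SD, n = 2), with 32.3% to 39.4% on the other chromosomes. In windows of the same length 500 bp to either side it was in 6.37%, and in all such windows tiled along V in 7.05%. The centre had the lower share, 27.2% (21.1 to 34.0), against 38.8% (29.9 to 48.3) in the left arm and 38.1% (28.5 to 48.6) in the right, and these intervals met. Peaks with and without it had median signals of 132 and 121. AATGCAT was in 16 windows (3.92%, 2.26 to 6.29), with 3.75% ± 0.856 over the replicates (SD, n = 2). On the other chromosomes it was in 1.84% to 3.64% of windows. Together these gave 2.91% (2.29 to 3.63), and the intervals met. Of the flanks on V 15 of 816 held it (1.84%), below the interval of the summits, and of the tiles 2.27%, at its lower bound. The flank count is small and no interval was taken for it. Of the 16 windows on V, 7 were in the left arm, 8 in the centre and 1 in the right arm. The strongest was at F48G7.4 (355; 137 and 216), followed by ppm-1.A, a protein phosphatase gene (336; 160.1 and 176), seip-1, the seipin gene (209; 84.9 and 122), a site 2184 bp upstream of cmd-1 (203; 78.4 and 129) and the divergent promoter of pak-2 and C45B11.9 (197; 75.7 and 118.6). None of the 15 strongest peaks of V held AATGCAT, and 7 held GAGAGA.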

How the data were processed

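UNC-86::GFP ChIP-seq peak lists from 2 biological replicates were analysed. Per the README files deposited beside the samples, the authors made a relaxed list from each replicate and a control, a pooled list, and from these the optimal list, by irreproducible discovery rate (IDR). The sources used here do not give the aligner, the caller or the cutoff, and the control was not analysed here. The signal column is the authors' deposited value, with a scale not stated. The deposited −log10 q value was the same at all 2987 optimal peaks and was not used. Positions are the authors' deposited ce11 coordinates, and summits their deposited offsets.

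Peaks were set against WBcel235 (ce11) with Ensembl release 115. For mean ± SD, the steps were repeated on the strongest 2987 peaks of either replicate. Shares have exact (Clopper-Pearson) 95% intervals, which cover counting only. Overlap means at least 1 bp. Nothing was tested, since there was 1 group. Genes named are those nearest the 15 strongest peaks, up to 4 members per list, and those at the longest stretches, densest windows, parts, motifs and replicate differences. Members and lists were chosen with earlier results of these data known, and the patterns of several lists were corrected after the files were read. Counting steps were tested on simulated peaks. Python 3.11.15, numpy 2.4.6, pandas 2.3.3 and scipy 1.17.1 were used.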

Additional observations from a re-analysis of the deposited data

How the results depend on the processing

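Chromosome V had the fewest peaks per Mb of the 6 chromosomes in the optimal list, in its stronger part (signal above the median), in the whole pooled list and in each replicate alone, and the smallest share of genes with a promoter peak there and under each other way of giving peaks to genes. Leaving out a replicate gave a V share of peaks of 13.8% and 19.7 peaks per Mb with either one, a centre share of 46.5% to 47.5%, genes with a peak 8.27% to 8.35%, promoter share 81.6% to 82.1%, GAGAGA 31.0% to 32.7%, AATGCAT 3.15% to 4.36%, longest stretch 819.126 to 819.136 kb and median signal 52.7 to 67.7, values of the replicates' own lists.

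With signal above the median these were 13.1% of peaks, 9.37 per Mb, 4.77% of genes, 87.2% at promoters, 35.2% GAGAGA, a longest stretch of 1031 kb, a median signal of 222 and 100% found in both replicates. With all pooled peaks they were 17.5%, 173.5 per Mb, 37.2% in the centre, 33.4% of genes, 64.8% at promoters, 13.8% GAGAGA, 2.67% AATGCAT, 239 kb and a median signal of 25.2. The ce10 list gave 14.2% and a median signal of 99.8. Its density and centre share were not run, since ce10 lengths were not used here. With the centre as the middle 50% of the length it held 67.4%. Windows of 1000 to 250 bp gave 7.13% of genes and 77.0% at promoters, the nearest 5′ end alone 5.55%, any overlap 8.83%, protein-coding ends alone 69.9% at promoters, and the listed families left out 11.3%, an alternative added after seeing the data. A 50% reciprocal overlap left 71.3% in both replicates, and summit windows of 30 bp either side gave 17.6% GAGAGA and 1.23% AATGCAT.

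Of 225 list counts recomputed in this way, all added after seeing the data, 177 lay within 1.5 times the reported count. The other 48 lay outside it. The 177 include unchanged counts of lists without any peak under any setting, such as srw, srx, cytochrome P450 and neuropeptide genes. Such counts cannot show how stable the lists with peaks were, so the 177 is not a measure of that. Chemoreceptors with a peak went from 7 to 3 with the nearest 5′ end alone, to 4 with the shorter window and to 2 with stronger peaks. With the nearest 5′ end alone, cytosolic ribosomal protein genes also went from 5 to 2 and heat shock genes from 4 to 1, while pan-neuronal genes stayed at 3. The cause of these shifts was not tested. No paired analysis was possible because there was 1 group. Unknown read depth and mappability limit the reading of absent peaks: no optimal peak means that none passed the authors' threshold, not that no binding occurred.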
